A study of Mus musculus with 6 samples.

Results

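Histone genes and the enzymes and structural proteins that act on chromatin were examined in the striatum of Hdh4/Q80 and wild-type mice. Probe sets were taken by gene symbol: those whose symbols, single or all of several, named an H1, H2A, H2B, H3 or H4 histone gene, and single-symbol probe sets of histone deacetylases (Hdac), SWI/SNF subunits and relatives (Smarc), DNA methyltransferases (Dnmt), chromobox proteins (Cbx), high mobility group proteins (Hmga, Hmgb, Hmgn) and histone acetyltransferases (Crebbp, Ep300, Kat). This gave 68 of 8949 annotated gene symbols, on 76 of 12422 probe sets, 30 for histones and 46 for regulators. Of these, 70 named 1 gene each (52 genes) and 6, all for histones, were shared by several genes. No H4 gene was among the symbols. The symbols alone chose the members, but the set was proposed with results of this comparison known, so its group differences are given as a description and support nothing further.

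Total RNA from the striatum was hybridised to Affymetrix arrays, 1 array per mouse, in 3 Hdh4/Q80 mutants and 3 of their wild-type littermates. Every mouse was female, of the C57BL/6 strain and 12 months old. The labels call the Hdh4/Q80 animals transgenic; in this line the mouse's own huntingtin gene (Hdh, now Htt) has a lengthened CAG repeat, and the sources used here do not give the zygosity. Values are log2 expression per probe set after robust multi-array averaging (RMA), which corrects background, gives all arrays 1 distribution and combines the probes within each set. Differences are Hdh4/Q80 minus wild type on this log2 scale.

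DNA in the nucleus is wound around octamers of the core histones H2A, H2B, H3 and H4, and the linker histone H1 binds where the DNA enters and leaves. Most core and H1 genes lie in clusters, are transcribed mainly during DNA replication and give mRNAs that end in a stem-loop rather than a poly(A) tail, whereas variants such as H2A.Z and H3.3 are made throughout the cell cycle and are the main supply of non-dividing cells such as neurons. Acetyltransferases open chromatin and deacetylases close it. Mutant huntingtin is known to bind the acetyltransferase CREB-binding protein, and loss of histone acetylation has been studied in models of Huntington's disease.

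The arrays were alike in level, with medians of 7.1 to 7.13 and lower quartiles of 5.79 to 5.86. Array 8, from an Hdh4/Q80 mouse, differed most from the rest: it correlated with them at 0.992 on average, where the 5 remaining arrays reached 0.995 to 0.997, and it held the lowest value for 33.7% of all probe sets and for 32 of the 76 members. Without it, 15 of the 76 members had a difference of the other sign, 12 of the 46 regulators and 3 of the 30 histones. Values without it stand beside each difference of at least 0.10 in size that shrank by over 1.5 times or turned without it, and beside some smaller ones. The 5 of 10 spiny projection neuron markers with a probe set of their own, which mark the striatum's principal neurons, had a mean level of 9.18 to 9.41 in wild-type and 9.28 to 9.37 in Hdh4/Q80 mice. In bulk tissue, fewer cells of a type and less RNA per cell cannot be told apart.

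The members with the lowest differences were histone probe sets, 1 or more for each of H1, H2A, H2B and H3, which read 1.23 to 1.30-fold lower in Hdh4/Q80 striatum. In limma's fit, adjusted over all probe sets by the Benjamini-Hochberg method, 0 of 76 members passed, as did 0% of all 12422 probe sets (smallest adjusted p = 0.857). At an unadjusted p under 0.05 there were 9 members (11.8%, against 5.1% of all probe sets): 8 members with lower values (10.5%, against 2.21% of all probe sets) and 1 with higher values (1.32%, against 2.9%). In 9 members the 3 Hdh4/Q80 mice all lay below the 3 wild types (11.8%, against 5.05% of all probe sets), and in 4 they all lay above (5.26%, against 6.67%). Without replicate 8, 7 members had lower and 1 had higher values at that p. The share of all probe sets was not counted for that fit, so these counts cannot be set against 2.21% and 2.9%. With these 5 mice the groups were apart in 11 members below (7.67% of all probe sets) and 8 above (10.7% of all). Below 0 were 47 of 76 differences, or 61.8%, against 51.1% of all probe sets, and their median was -0.022 against -0.0027. For all 76 members the 95% interval of the difference excluded a change of 1.5-fold in either direction on the array scale, which compresses the changes of dim probe sets. Of the members, 17 (9 of them histones) lay below the lower quartile on all 6 arrays.

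**Figure D1:**
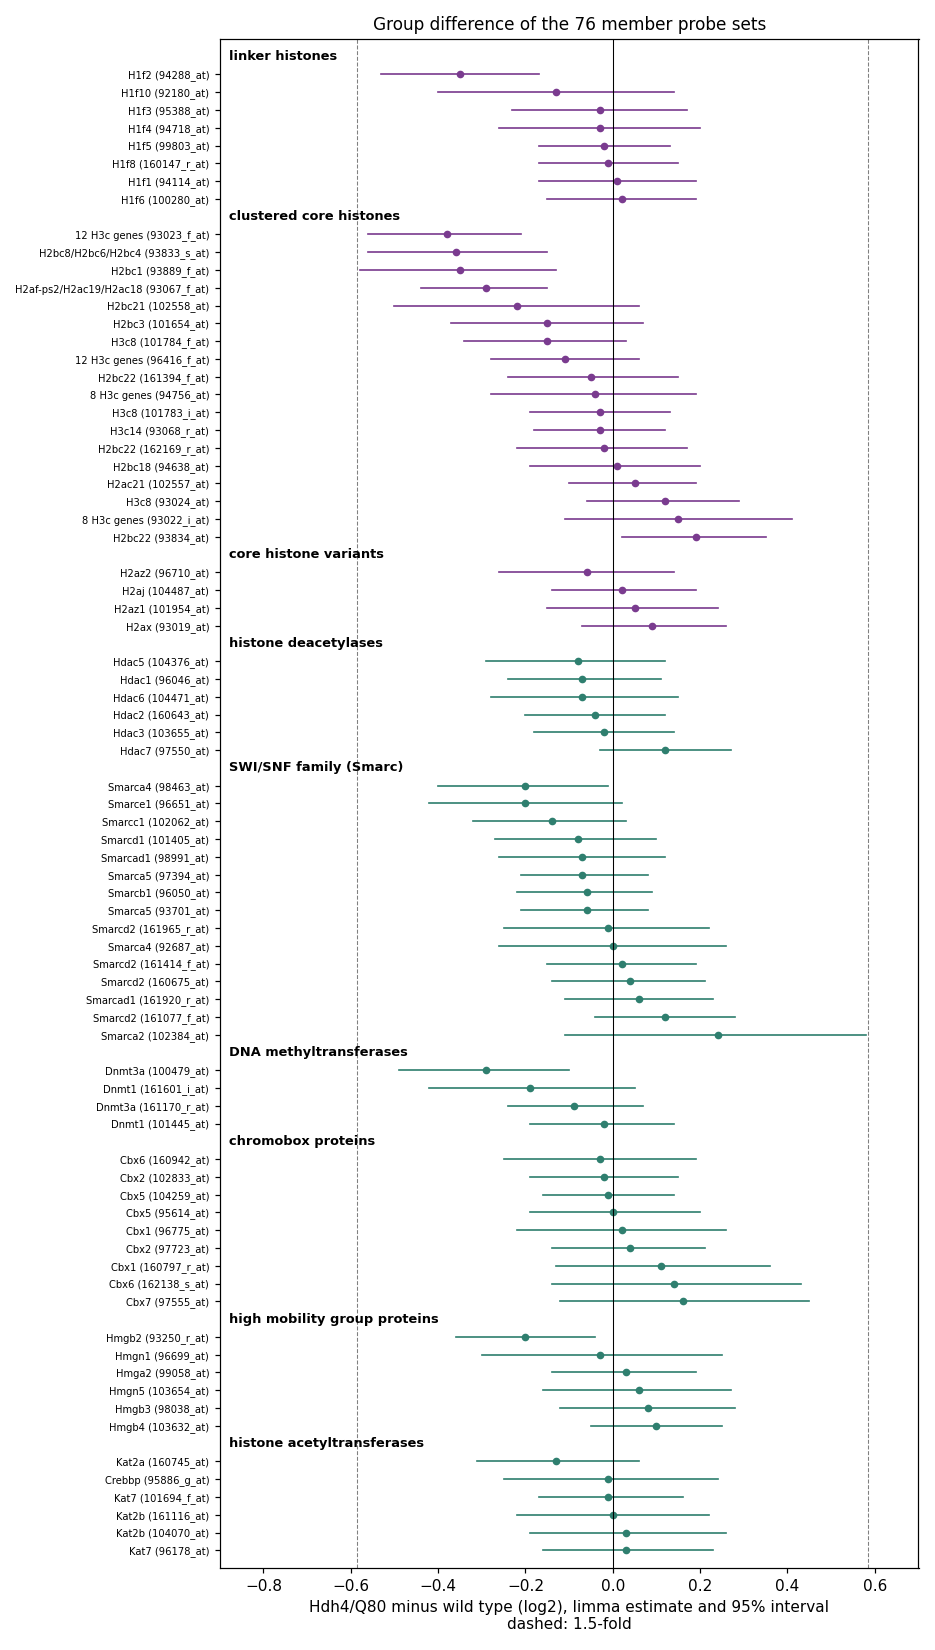
Difference between Hdh4/Q80 and wild-type striatum on the log2 scale (horizontal axis) for each of the 76 member probe sets, grouped by role, as limma's estimate (point) with its 95% interval (bar); dashed lines mark a 1.5-fold change. The 4 lowest clustered core histone probe sets and H1f2 lie between -0.38 and -0.29, and the intervals of all 76 stay inside the dashed lines.

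Among the linker histones, H1f2 was the member that stood lowest. H1f2 encodes H1.2, one of the H1 subtypes found in most tissues. Its probe set read 9.40, 9.28 and 9.40 in wild-type replicates 4, 5 and 6, and 9.08, 8.88 and 9.09 in Hdh4/Q80 replicates 7, 8 and 9. The groups did not overlap, with replicate 8 lowest. Wild types averaged 9.36 ± 0.0654 and mutants 9.01 ± 0.118 (SD, n = 3 each). The difference was -0.35 (95% interval -0.53 to -0.17), or 1.27-fold lower. Without replicate 8 the difference was -0.28. The 7 remaining linker probe sets lay between -0.13 and 0.02. H1f10, a replication-independent linker histone, averaged 9.68 ± 0.0664 in wild types and 9.54 ± 0.271 in mutants, and its difference of -0.13 rested on replicate 8, which read 9.25 against 9.61 and 9.77 in replicates 7 and 9; without it the difference was 0.02. H1f1, H1f3, H1f4, H1f5 and the germ-cell subtypes H1f6 and H1f8 lay between -0.03 and 0.02. H1f3, H1f4 and H1f6 lay below the lower quartile on all 6 arrays, where RMA gives little information on a change.

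Promoters are shown for H1f2, H1f3, H1f4, H1f5 and H1f6, the 5 linker genes that share an H1 box core and a CCAAT box. Of these, H1f2 differed by -0.35 and the others lay between -0.03 and 0.02. Of 36 member histone genes, 30 matched the RefSeq promoter table (GRCm38.p6), 18 of them on chromosome 13 and 8 on chromosome 3. The 130 bases before the annotated start are printed 5′ to 3′ on the gene's strand. Capitals mark, on either strand, the CCAAT box (CCAAT), the TATA box (TATAAA), the core of the octamer (ATTTGCA) known from H2B promoters and the core of the H1 box (AAACACA) known from H1 promoters. None of these matches overlaps another in the stretches shown. The linker genes are H1f2 at chr13:23738677-23738806 (plus strand), H1f3 at chr13:23554902-23555031 (plus strand), H1f4 at chr13:23622559-23622688 (minus strand), H1f5 at chr13:21780626-21780755 (minus strand) and H1f6 at chr13:23695681-23695810 (plus strand):
H1f2: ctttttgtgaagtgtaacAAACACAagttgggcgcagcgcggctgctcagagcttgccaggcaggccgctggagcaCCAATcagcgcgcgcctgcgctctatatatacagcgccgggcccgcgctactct
H1f3: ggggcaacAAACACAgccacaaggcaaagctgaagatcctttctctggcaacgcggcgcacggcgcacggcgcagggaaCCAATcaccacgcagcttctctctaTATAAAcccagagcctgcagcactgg
H1f4: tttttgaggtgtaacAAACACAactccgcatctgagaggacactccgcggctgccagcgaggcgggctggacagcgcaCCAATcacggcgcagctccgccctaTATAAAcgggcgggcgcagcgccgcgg
H1f5: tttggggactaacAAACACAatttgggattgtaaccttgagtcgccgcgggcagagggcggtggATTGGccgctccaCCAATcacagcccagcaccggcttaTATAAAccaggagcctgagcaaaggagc
H1f6: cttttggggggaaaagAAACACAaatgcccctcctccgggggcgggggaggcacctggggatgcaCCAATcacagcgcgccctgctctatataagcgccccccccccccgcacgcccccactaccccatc

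All 5 hold the H1 box core 112 to 122 bases and a CCAAT box 51 to 65 bases before the start, counted to the first base of the match. H1f3, H1f4 and H1f5 have the letters TATAAA 26 to 28 bases before the start, and H1f2 and H1f6 do not have these exact letters in this stretch. On the arrays H1f2 differed by -0.35 and H1f6 by 0.02, and H1f3, H1f4 and H1f5 by -0.03, -0.03 and -0.02, although H1f3, H1f4 and H1f6 were dim.

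The clustered core histones were measured by 18 probe sets, 13 below 0 and 5 above, with a median of -0.044. The sources do not state the priming step, so how far mRNAs without a poly(A) tail were read is not known. The lowest was a probe set shared by 12 genes of histone H3 (probe set 93023_f_at), a core histone whose tail carries many of the studied acetyl and methyl marks. It read 8.18, 8.24 and 8.20 in wild-type and 7.93, 7.69 and 7.85 in Hdh4/Q80 mice. The groups did not overlap, and the difference was -0.38 (interval -0.56 to -0.21), or 1.30-fold lower. A second probe set annotated to the same 12 H3 genes (96416_f_at) read 8.82, 8.80 and 8.76 in wild-type and 8.80, 8.59 and 8.64 in Hdh4/Q80 mice. Here Hdh4/Q80 replicate 7 lay within the wild types, and the difference was -0.11 (interval -0.28 to 0.06), or -0.07 without replicate 8. A pair of dimmer probe sets for 8 of these H3 genes differed by -0.04 and 0.15, and the 3 probe sets of H3c8 alone by -0.15, -0.03 and 0.12. The pair and the H3c8 probe set at 0.12 lay below the lower quartile on all 6 arrays, where RMA gives little information on a change. The 0.15 was 0.27 without replicate 8 and 0.03 without replicate 9. The H3c14 probe set differed by -0.03.

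Histone H2B, the partner of H2A in the octamer, had 8 probe sets with a median of -0.10. The one shared by H2bc4, H2bc6 and H2bc8 read 9.31, 9.04 and 9.20 in wild-type and 8.86, 8.68 and 8.94 in Hdh4/Q80 mice. All 3 mutants lay below all 3 wild types, and the difference was -0.36 (interval -0.56 to -0.15), or 1.28-fold lower. H2bc1, a testis form of H2B, had a family probe set that read 5.44, 5.29 and 5.36 against 5.08, 4.79 and 5.16, a difference of -0.35 (interval -0.58 to -0.13). It was dim, below the lower quartile on every array, and its suffix (_f) marks probes that can bind related transcripts. H2bc21 and H2bc3 differed by -0.22 and -0.15, with overlapping groups. The H2bc3 probe set was dim, and its difference was -0.04 without Hdh4/Q80 replicate 9. H2bc22 had probe sets on both sides of 0: 1 probe set averaged 7.03 ± 0.0787 in wild types and 7.22 ± 0.054 in mutants, a difference of 0.19 (interval 0.02 to 0.35) with no overlap, while its other probe sets differed by -0.02 and -0.05 (-0.07 and -0.03 without replicate 8). Averaged over its 3 probe sets the H2bc22 difference was 0.04. H2bc18, also dim, differed by 0.01.

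Histone H2A had a pair of clustered probe sets. That shared by H2ac18, H2ac19 and the pseudogene H2af-ps2 read 8.29, 8.23 and 8.26 in wild-type and 7.92, 7.97 and 8.00 in Hdh4/Q80 mice. The groups lay apart by more than the range within either, and the difference was -0.29 (interval -0.44 to -0.15), or 1.23-fold lower. H2ac21 differed by 0.05. A probe set for 13 H2A genes that also lists Trim17, and so was no member, read 9.42, 9.41 and 9.48 in wild-type and 9.26, 9.0 and 9.19 in Hdh4/Q80 mice. These groups did not overlap, and the difference was -0.28. Of 7 probe sets left out because they also list genes outside the rule, it was the only such case. The groups overlapped in the others, for H3.3, Cbx3 (-0.03 and 0.08), Hmgn2 (0.08) and Hmgb1 (-0.11).

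The promoters of 4 core histone genes, marked in the same way, are H2bc8 at chr13:23571270-23571399 (plus strand), H2bc3 at chr13:23746604-23746733 (plus strand), H2bc18 at chr3:96269570-96269699 (plus strand) and H2ac18 at chr3:96245367-96245496 (plus strand):
H2bc8: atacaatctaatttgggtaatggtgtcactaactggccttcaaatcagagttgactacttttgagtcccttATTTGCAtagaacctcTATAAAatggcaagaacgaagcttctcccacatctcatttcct
H2bc3: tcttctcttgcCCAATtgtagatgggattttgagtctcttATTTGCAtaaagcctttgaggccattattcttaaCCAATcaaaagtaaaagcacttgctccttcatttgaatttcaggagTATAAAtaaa
H2bc18: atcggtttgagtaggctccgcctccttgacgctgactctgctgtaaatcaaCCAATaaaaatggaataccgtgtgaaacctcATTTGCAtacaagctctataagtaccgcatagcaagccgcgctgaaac
H2ac18: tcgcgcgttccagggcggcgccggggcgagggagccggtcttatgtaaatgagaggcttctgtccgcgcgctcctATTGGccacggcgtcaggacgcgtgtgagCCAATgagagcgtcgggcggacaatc

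H2bc8, H2bc3 and H2bc18 hold the octamer core 59, 90 and 48 bases before the start, and their probe sets differed by -0.36 (shared with H2bc4 and H2bc6), -0.15 and 0.01. The H2bc3 and H2bc18 probe sets were dim, below the lower quartile on all 6 arrays, where RMA gives little information on a change. H2ac18, whose shared probe set differed by -0.29, holds a CCAAT box on each strand. Over the 250 bases before the start, on either strand, the H1 box core was found in 5 of 8 member H1 promoters (62.5%), against 6.25% of the 32851 promoters in the table. The octamer core was found in 5 of 7 member H2B promoters (71.4%), against 3.56% of all. CCAAT was found in 28 of 31 member histone promoters (90.3%), against 33.8%, and TATAAA in 13 of 31 (41.9%), against 12.4%. These are matches of letters only.

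**Figure D2:**
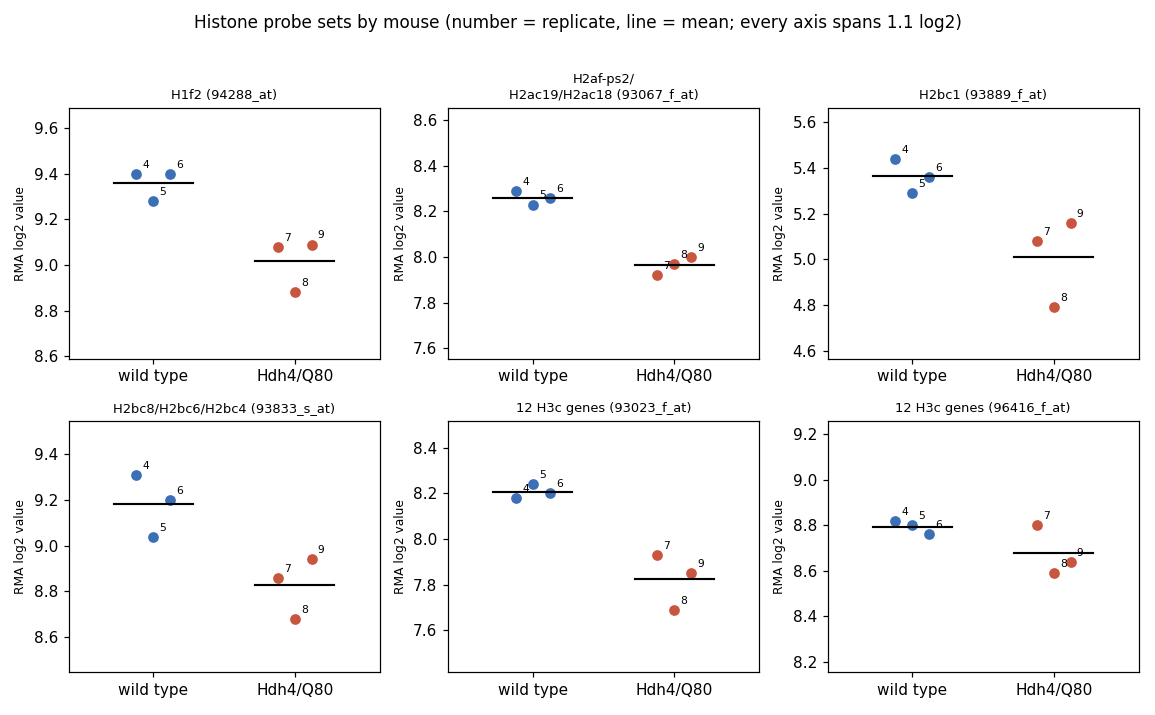
RMA log2 values (vertical axis, the same span in each panel) of 6 histone probe sets in each wild-type (blue) and Hdh4/Q80 (red) mouse, numbered by replicate, with the mean of each group as a line. In H1f2, the shared H2A and H2B probe sets, 93023_f_at for H3 and H2bc1 the groups do not overlap, while in 96416_f_at, annotated to the same 12 H3 genes, replicate 7 lies among the wild types.

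The 5 histone probe sets with non-overlapping lower values were among the brighter or the less specific ones. The brightest histone probe sets, H3c14 and H1f10, were not among them. They differed by -0.03 and -0.13, or by -0.05 and 0.02 without replicate 8. Of the 12 histone probe sets above the median of every array, 10 were below 0 (83.3%) and 4 were lower without overlap (33.3%), with a median of -0.09; of all 5801 probe sets above the medians, 60.2% were below 0 and 6.76% lower without overlap, with a median of -0.02. The 7 histone probe sets with a suffix for related transcripts (_f or _s) were all below 0, with a median of -0.29, while the 1446 such probe sets on the arrays had a median of 0.0093 with 671 below 0. These 2 subsets were chosen after the values were seen, and their probe sets share genes and sequence, so the counts are not independent. Hdh4/Q80 replicate 8 was the lowest mouse in 4 of the 5, and replicate 7 in the H2ac18 and H2ac19 probe set. Without replicate 8 the differences of the 5 were -0.28 (H1f2), -0.30 (H2ac18 and H2ac19), -0.28 (H2bc4, H2bc6 and H2bc8), -0.31 (the 12 H3 genes) and -0.24 (H2bc1).

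**Figure D3:**
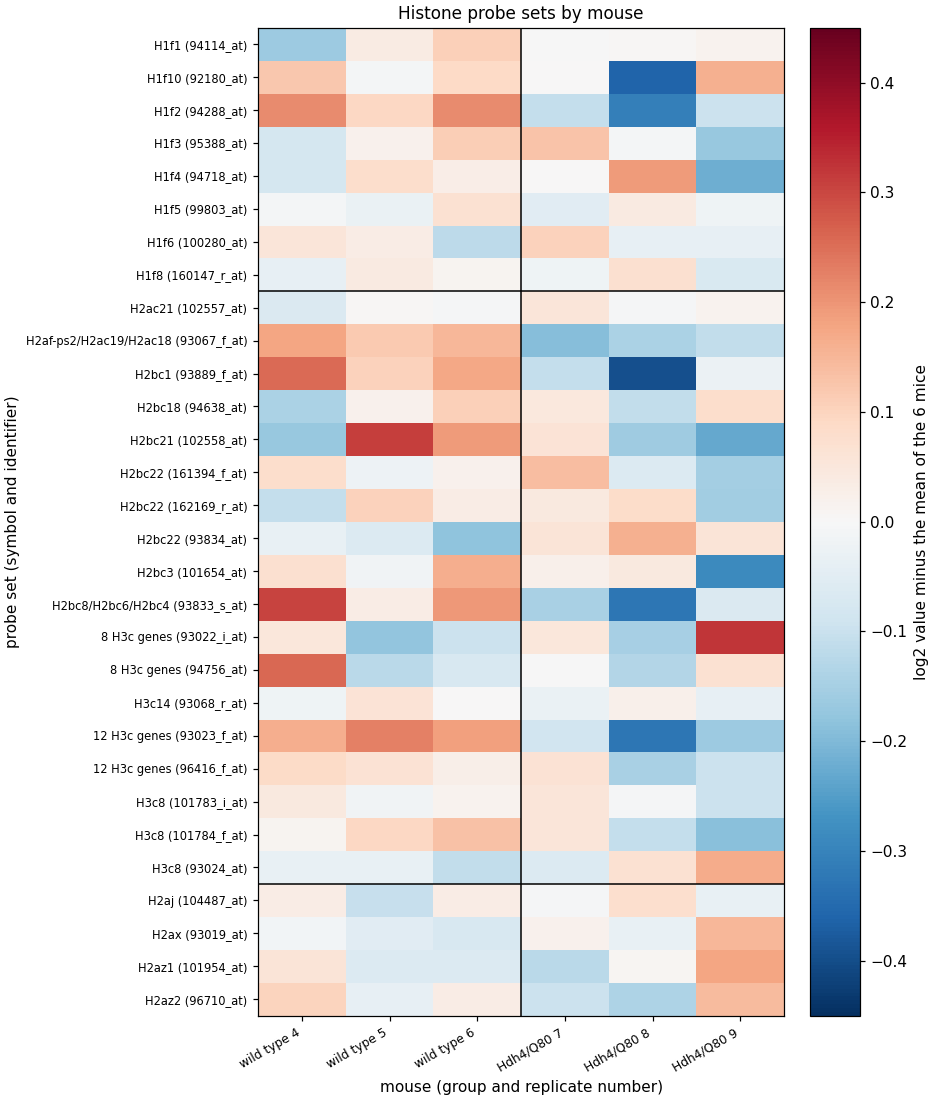
Log2 value minus the mean of the 6 mice (colour, blue below and red above) for the 30 histone probe sets (rows: linker, clustered core, variants, parted by lines) in each mouse (columns). H1f2, H2ac18 and H2ac19, H2bc1, the shared H2B probe set and 93023_f_at are blue in all 3 Hdh4/Q80 mice and red in all 3 wild types, and most other rows show no such split.

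The core histone variants, most of which are made independently of replication, lay between -0.06 and 0.09. H2ax, the H2A form phosphorylated at DNA breaks, differed by 0.09 (interval -0.07 to 0.26). H2az1 and H2az2, which encode the H2A.Z variant found at promoters, differed by 0.05 and -0.06 (-0.01 for H2az2 without replicate 8), and H2aj by 0.02; in all 4 the groups overlapped. A pair of H3.3 probe sets that also list predicted genes, and so were no members, differed by 0.07 and -0.01. The 0.07 rested on replicate 8, which read 9.12 against 8.6 and 8.67 in replicates 7 and 9. Wild types read 8.84, 8.66 and 8.67 there.

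The levels of marker genes of other cell types are set beside these values. The 13 of 15 dividing-cell markers that were measured had a mean level of 7.09 to 7.17 in wild-type and 7.09 to 7.21 in Hdh4/Q80 mice, with 5 of 13 below 0 and a median of 0.01. All 7 microglia markers were below 0 (median -0.21), and their mean level of 9.0 to 9.08 in wild types and 8.66 to 8.93 in mutants did not overlap; array 8 was lowest here too. Oligodendrocyte markers (7 of 8 measured, 5 below 0) ranged from 9.62 to 9.69 and from 9.53 to 9.57, and astrocyte markers (6 of 7 measured, 5 below 0) from 9.11 to 9.25 and from 8.96 to 9.15. Blood markers (2 of 4 measured, both below 0) ranged from 9.76 to 9.94 and from 9.59 to 9.71, and choroid plexus and ependyma markers (4 of 6 measured, 0 below 0) from 7.29 to 8.08 and from 7.32 to 8.72. Endothelial markers (6 of 6, 1 below 0) and cortical neuron markers (4 of 6, 2 below 0) overlapped in mean level between groups. The mean levels of oligodendrocyte and blood markers did not. No marker was at 0, since every RMA value here was positive, and the part of these cells in the histone differences was not tested.

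Of 6 acetyltransferase probe sets 4 were below 0, or 2 without replicate 8. Crebbp, which encodes CREB-binding protein, read 9.02, 8.76 and 8.85 in wild-type and 8.84, 8.69 and 9.08 in Hdh4/Q80 mice. The groups overlapped throughout, and the difference was -0.01 (interval -0.25 to 0.24), or 0.08 without replicate 8. Kat2a, which encodes the GCN5 acetyltransferase, differed by -0.13 (interval -0.31 to 0.06) and by -0.07 without replicate 8. Its relative Kat2b (PCAF) differed by 0.03 and -0.0034 on its pair of probe sets, and Kat7 (HBO1) by 0.03 and -0.01. Ep300, Hdac4, Dnmt3b, Cbx3, Hmgb1, H1f0, H3f3a and H3f3b had no probe set of their own.

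The deacetylases had 6 probe sets between -0.08 and 0.12, with 5 below 0. Hdac7, a class IIa enzyme, read 9.27, 9.23 and 9.26 in wild-type and 9.31, 9.42 and 9.38 in Hdh4/Q80 mice. All mutants lay above all wild types, by a small margin, and the difference was 0.12 (interval -0.03 to 0.27). Hdac1, Hdac2 and Hdac3, the catalytic subunits of corepressor complexes, differed by -0.07, -0.04 and -0.02. Hdac5, a signal-responsive enzyme abundant in brain, differed by -0.08 and Hdac6, the cytoplasmic tubulin deacetylase, by -0.07; in these 5 genes the groups overlapped. Without replicate 8, Hdac1 differed by -0.01, Hdac5 by less than 0.01 in size and Hdac6 by 0.04; 4 of 6 deacetylase probe sets were then below 0 and their median was -0.01, against -0.05 with it.

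DNA methyltransferases were below 0 on all 4 probe sets, with a median of -0.14; without replicate 8, 3 of 4 were, with a median of -0.06. Dnmt3a, which methylates DNA de novo and is the main such enzyme of adult neurons, read 5.95, 6.07 and 6.08 in wild-type and 5.88, 5.59 and 5.75 in Hdh4/Q80 mice. The groups did not overlap, by a small margin, and the difference was -0.29 (interval -0.49 to -0.10), or 1.22-fold lower. Without replicate 8 it was -0.22. The probe set lay near the lower quartile of the arrays, and the other one for Dnmt3a, far below it at 3.53 and 3.44, differed by -0.09 with overlapping groups. Dnmt1, the maintenance methyltransferase, differed by -0.02 on its brighter probe set and by -0.19 on the other, a value that was -0.06 without replicate 8.

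Of the 15 probe sets for SWI/SNF subunits and relatives, which move nucleosomes with the energy of ATP, 9 were below 0. Smarca4 (BRG1) and Smarca2 (BRM) are the alternative motors of the complex. Smarca4 read 9.14, 8.90 and 8.96 in wild types and 8.85, 8.67 and 8.87 in mutants, a difference of -0.20 (interval -0.40 to -0.01). The groups lay apart by a margin smaller than their own spread, and the dimmer probe set of Smarca4 differed by 0.00066. That dimmer probe set lay below the lower quartile on all 6 arrays, where RMA gives little information on a change. Without replicate 8 the brighter one differed by -0.14. Smarca2 read 7.70, 7.02 and 7.33 in wild-type and 7.41, 7.77 and 7.58 in Hdh4/Q80 mice. It varied more between mice of a group than any other member (SD 0.27), and its difference of 0.24 (interval -0.11 to 0.58) ranged from 0.07 (without wild-type replicate 5) to 0.41 (without wild-type replicate 4) with 1 mouse left out and was 0.14 without replicate 8. Smarce1 (BAF57) differed by -0.20 (-0.10 without replicate 8) and Smarcc1 (BAF155) by -0.14, both with overlap. Smarcb1, Smarcd1 and both probe sets of Smarca5, the motor of the ISWI complexes, lay between -0.08 and -0.06; Smarcd1 differed by -0.01 without replicate 8. In 1 of the Smarca5 probe sets (6.91, 6.90 and 6.92 against 6.88, 6.82 and 6.83) the groups did not overlap. The 4 probe sets of Smarcd2 lay between -0.01 and 0.12, the highest without overlap by a margin under the 2 decimals given here, and those of Smarcad1 at -0.07 and 0.06. Without replicate 8 the highest for Smarcd2 was 0.07 and both for Smarcad1 were under 0.01 in size.

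**Figure D4:**
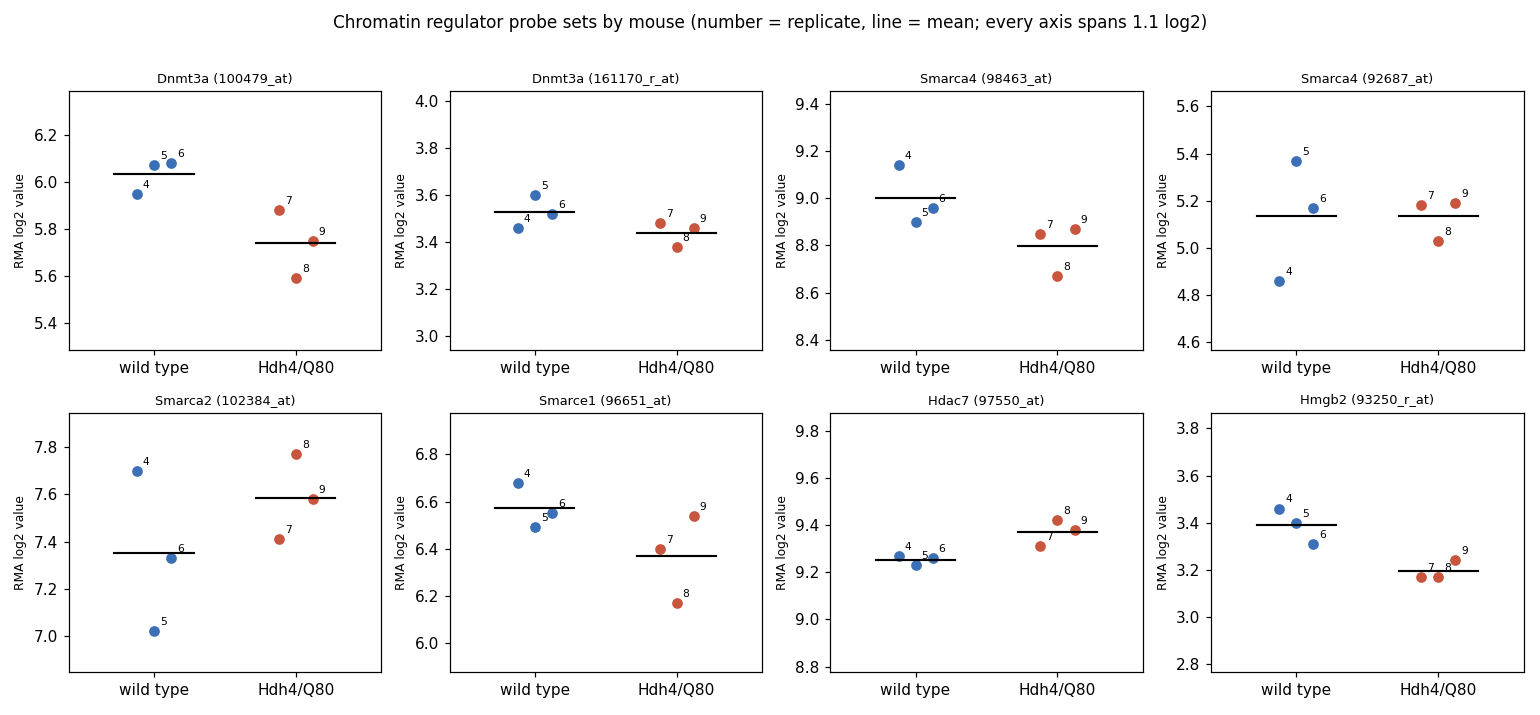
RMA log2 values (vertical axis, the same span in each panel) of 8 regulator probe sets in each wild-type (blue) and Hdh4/Q80 (red) mouse, numbered by replicate, with group means as lines. Both probe sets of Dnmt3a and of Smarca4 are shown: the brighter of each is without overlap (-0.29 and -0.20). The dimmer of each overlaps and lies below the lower quartile on every array.

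The chromobox proteins, readers of methylated histone H3, gave 9 probe sets with 3 below 0, or 1 without replicate 8, and a median of 0.02. Cbx5 (HP1 alpha) differed by -0.01 and 0.0024 and Cbx1 (HP1 beta) by 0.02 and 0.11. The Polycomb members Cbx2, Cbx6 and Cbx7 lay between -0.03 and 0.16, and the highest, Cbx7, was dim and differed by 0.01 without replicate 8. The groups overlapped in all 9. The high mobility group proteins, which bend DNA or bind nucleosomes, lay between -0.20 and 0.10. Hmgn1, the brightest at 10.92 and 10.89, differed by -0.03, Hmgb3 by 0.08, Hmgn5 by 0.06 (-0.05 without replicate 8) and Hmga2 by 0.03. Hmgb2 read 3.46, 3.40 and 3.31 against 3.17, 3.17 and 3.24, a difference of -0.20 (interval -0.36 to -0.04) without overlap, but below the lower quartile on every array. Hmgb4, also dim, differed by 0.10 without overlap.

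**Figure D5:**
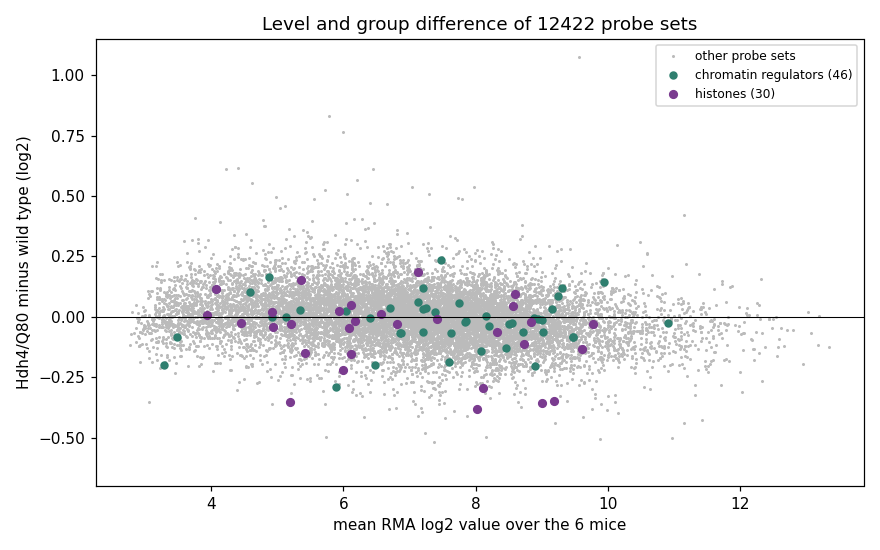
Mean RMA log2 value over the 6 mice (horizontal axis) against the difference between Hdh4/Q80 and wild-type mice (log2, vertical axis) for all 12422 probe sets (grey), with the 30 histone (purple) and 46 regulator (green) probe sets on top. The histone probe sets at -0.29 to -0.38 lie toward the lower edge of the grey cloud, at mean levels of about 8 to 9 and, for H2bc1, about 5.

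A wider list of chromatin genes outside the members had 62 of 81 genes measured. Taken by the brightest probe set of each gene, 35 were below 0 and 27 above, with a median of -0.02. In limma's fit 0 passed the adjusted test. An unadjusted p under 0.05 was found for 1 gene (Atrx, lower), against 2.21% of all probe sets lower and 2.9% higher. The groups did not overlap in 6 genes with lower values (9.68%, against 5.05% of all probe sets) and 3 with higher values (against 6.67%). Over every probe set of these genes (81), 45 were below 0, and Suz12, a Polycomb subunit, had 1 with a higher value at that p (0.15), with -0.15 and 0.05 on its other probe sets. From each sublist below, the 3 genes of smallest unadjusted p in limma's fit are named. Of 15 histone chaperones and supply factors, which carry histones to DNA, 8 were below 0. Hira, the chaperone that deposits H3.3, differed by 0.13, with 0.01 on its other probe set, Npm1 by -0.09 and Asf1b by 0.08. Of 17 writers and erasers of histone methylation 9 were below 0, and all 17 lay between -0.09 and 0.10 by the brightest probe set, or -0.15 and 0.15 over all 21. Among them the arginine methyltransferase Prmt5 differed by 0.09, the H3 lysine methyltransferase Suv39h2 by -0.09 and the H3 lysine demethylase Kdm5a by -0.07. Of 30 corepressors, readers and remodellers 18 were below 0. Atrx, the remodeller that places H3.3 at repeats, was dim and differed by -0.22, with overlap. Sin3b, a corepressor scaffold, differed by -0.15, with 0.06 on its other probe set, and the deacetylase Sirt1 by 0.14. Of the genes named from the sublists, Hira, Npm1, Kdm5a, Sin3b and Sirt1 had groups that did not overlap on the brightest probe set.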

How the data were processed

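Each of 6 arrays measured striatal RNA of 1 mouse, labelled with an in vitro transcription kit; the priming step, software versions and the set of arrays processed as 1 batch were not stated in the sources. Per the submitters' processing notes, the authors used RMA (affy), and the deposited unit is log2. RMA hides a shift common to all genes and compresses fold changes. Of 12488 probe sets, 66 controls were left out. Scanner files were not used here, so absence calls were not made; the number of arrays limits precision. Groups and replicate numbers came from the sample titles; no batch is labelled.

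Symbols came from the platform annotation (10833 probe sets with 1 symbol, 396 with several, 1193 with none); all 68 member symbols matched the RefSeq gene table by identifier. A limma fit (version 3.58.1, R 4.3.3; lmFit, then eBayes; 4 residual and 5.81 prior degrees of freedom) compared the groups on all 12422 probe sets, with Benjamini-Hochberg adjustment and a threshold of 0.05; the fit was tested on simulated data. Non-overlap means that the ranges of the groups are disjoint. The rule for named genes took the 3 smallest p per role, a fixed panel of 25 genes, the 5 members of largest spread and the genes whose probe sets differed most. From the wider list it took the 3 smallest p per sublist. H2bc1 and the other members outside the rule were named after their values were seen. The members and lists were chosen with earlier results of these data known. Alternatives were a filter on dim probe sets, 2 normalizations, trended and robust moderation, 1 averaged value per gene, and each mouse left out in turn.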

Additional observations from a re-analysis of the deposited data

How the results depend on the processing

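Under all 11 alternatives 0 members passed the adjusted test. The counts at an unadjusted p under 0.05 were added after the data were seen: the 8 lower members became 5 without the dimmest 40% of probe sets, which leaves 48 members, and 7 to 10 with 1 mouse left out; the 1 higher member became 0 when each gene's probe sets were averaged and 0 to 2 with 1 mouse left out. These counts stand without the share of all probe sets under the same alternative, so they do not show how the members compare with all probe sets there. The 47 members below 0 became 42 to 47 with 1 mouse left out. The histone median of -0.03 ran from -0.06 (without wild-type replicate 4) to -0.02 with 1 mouse left out. With 1 mouse left out, the median ran from -0.18 to -0.06 for DNA methyltransferases and from -0.08 to -0.01 for deacetylases. For acetyltransferases it ran from -0.05 to 0.07. The -0.06, -0.01 and 0.07 were without replicate 8. Medians ran from -0.07 to -0.03 for the Smarc family, and from 0.0 to 0.06 for both chromobox and high mobility group proteins. Of the 76 members, 38 kept their sign under every alternative and 38 did not; the latter had differences of at most 0.13 in size. H1f2 ran from -0.38 to -0.28, the H2ac18 and H2ac19 probe set from -0.31 to -0.27, the shared H2B one from -0.43 to -0.28 and 93023_f_at for H3 from -0.44 to -0.31. No paired analysis was possible because the labels do not give the litter of each mouse. Litter was therefore not modelled. With 3 mice a group a 2-sided exact permutation test of 1 value cannot reach 0.05.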
